A study of Homo sapiens with 6 samples.

Results

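The genes described here are the zinc finger genes of human chromosome 19 that carry a ZNF number as their name. They were taken from the deposited tables as rows with the biotype protein coding, a place on chromosome 19 and a name made of ZNF, a number and at most one further letter. This gave 246 genes of the 47432 genes in the tables, of which 20024 were protein coding. No measured value was used to choose them.

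RNA-seq was performed on the established melanoma line LOX-IMVI, which expresses IκBζ constitutively. The cells had been transduced with a lentiviral pLKO.1 short hairpin construct and selected with puromycin. One group carried the control construct (shCtrl), the other a single hairpin against NFKBIZ, the gene that encodes IκBζ (shNFKBIZ), with 3 libraries each. Both groups thus shared the vector, the selection and the culture, and effects of the hairpin other than the loss of NFKBIZ cannot be told apart from it. Replicates are separate samples by their labels, and p-values measure the spread between them. Levels are given as CPM (counts scaled to library size and TMM factor) or as TPM (also scaled to exon length), and a change is the log2 of the shNFKBIZ level over the shCtrl level. A gene was called higher or lower at an adjusted p of at most 0.05 in edgeR's quasi-likelihood test, adjusted over all genes tested.

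Zinc finger proteins of this family bind DNA through tandem C2H2 fingers, each of which holds a zinc ion and reads a few bases. Fingers are joined by a short conserved linker that begins with threonine and glycine. Many of the proteins also carry a KRAB box, which recruits the co-repressor TRIM28 and through it the histone methyltransferase SETDB1, and several of them silence transposable elements. Their genes lie in tandem clusters on chromosome 19 that arose by repeated duplication, so that neighbours are alike in sequence. In the GENCODE annotation a KRAB-like pattern was found in 207 of the 246 proteins, and the number of fingers ranged from 1 to 39 with a median of 13.

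The libraries held between 22264473 and 24624839 total exon reads and between 1812526 and 1975528 total intron reads. Every pair of replicates differed by more than counting noise (chi-square divided by its degrees of freedom 1.71 to 4.45). The targeted gene NFKBIZ was at 44.5 ± 4.12 TPM in shCtrl and 13.7 ± 0.362 TPM in shNFKBIZ (SD, n = 3), and fell by 1.78 on the log2 scale (SE 0.0581, adjusted p 7.2e-17, edgeR). Of the melanocyte lineage markers MITF, SOX10, PMEL, MLANA, TYR and DCT, SOX10 and MLANA had no reads in any library, and the summed level of the list was 3.06 to 4.1 TPM in shCtrl and 1.79 to 2.44 TPM in shNFKBIZ. The list AXL, NGFR, S100B and SOX9 summed to 406 to 453 TPM in shCtrl and 537 to 546 TPM in shNFKBIZ, most of it AXL, with S100B at 0. Mean SOX9 was 21.6 TPM in shCtrl and 55.1 TPM in shNFKBIZ, and mean AXL 407 and 486 TPM. Markers of immune, endothelial and epithelial cells (PTPRC, CD14, PECAM1, KRT14, CDH5 and EPCAM) summed to 0.873 to 1.49 TPM in shCtrl and 1.73 to 2.18 TPM in shNFKBIZ. The higher sum came from KRT14, with a mean of 0.57 TPM in shCtrl and 1.59 TPM in shNFKBIZ. CD14, PECAM1 and EPCAM had lower means in shNFKBIZ, and PTPRC and CDH5 slightly higher ones. The part of these shifts in the results below was not tested.

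Many of the chromosome 19 genes were silent or nearly so in this line. Of the 246 genes, 53 had no exon read in any library, 113 had fewer than 10 reads summed over the 6 libraries, and 119 (48.4%) had enough reads to be tested. The share tested was 53.9% (663 of 1230) among the other protein-coding genes of chromosome 19 and 81.6% (213 of 261) among ZNF genes of other chromosomes. The genes without reads were unevenly placed. In the pericentromeric stretch from ZNF101 to ZNF254 (19.7 to 24.1 Mb) 15 of 37 genes had no exon read and 5 were tested, and from ZNF653 to ZNF791 (11.5 to 12.6 Mb) 12 of 25 had none and 6 were tested. In the last stretch of the chromosome, from ZNF628 to ZNF446 (55.5 to 58.5 Mb), 9 of 59 had none and 40 were tested.

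To ask whether this gene family shifted together after NFKBIZ knockdown, the exon reads were compared first. More of the tested genes were higher in shNFKBIZ cells than lower, and the changes were small. Of the 119 tested, 42 (35.3%) were higher and 16 (13.4%) were lower, and 61 were not called. Of all 13843 genes tested, 32.5% were higher and 32.8% were lower, so the share of higher calls was near that of all genes and the share of lower calls was under it. The median log2 fold change was 0.13, against 0.00 over all genes tested and -0.03 over the other protein-coding genes of chromosome 19. No zinc finger gene of chromosome 19 was past a 2-fold change in exon reads, where 8.96% of all genes were, and the changes lay between -0.80 and 0.95.

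Summed, the genes made up a larger share of the exon reads in every shNFKBIZ library. Without TMM factors, their summed exon CPM were 1544, 1529 and 1604 in shCtrl and 1764, 1780 and 1779 in shNFKBIZ, so the groups did not overlap. Per gene, the CPM of the groups did not overlap for 67 of the 119 genes (56.3%, 44 above and 23 below shCtrl), against 68.7% of all genes tested. The size of the shift depended on the scaling. With library size alone in place of TMM factors 58 were higher and 12 lower. The share of higher among the calls was then 82.9%, against 72.4% with TMM. Over all genes tested, that share moved as well, to 60.8% with library size alone from 49.7% with TMM. The median of the ZNF genes moved to 0.22 and that of all genes to 0.09.

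The upward tilt was not particular to chromosome 19. ZNF genes of other chromosomes, chosen by the same naming rule, had 100 higher and 44 lower among 213 tested and a median of 0.15. On chromosome 19, the tilt was not shared by the other protein-coding genes, of which 190 were higher and 222 lower among 663. These are all genes that the naming rule left out, so zinc finger genes with other names, such as ZFP30, count among them. Genes with and without the KRAB-like pattern had the same median of 0.13, with 30 of 91 and 12 of 28 higher. Genes with more fingers than the median had a median change of 0.15 and the others 0.11.

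Overlap with other annotated genes went with the tilt in exon reads. The counting ignored strand, so that a read in 2 overlapping genes could go to either of them. Among the 41 tested genes that overlap no other gene, 10 were higher and 8 lower, with a median of 0.04. Among the 78 that overlap one, 32 were higher and 8 lower, with a median of 0.15. In intron reads the order was the other way. There 9 were higher and 2 lower among 36 genes without overlap (median 0.14). With overlap, 13 were higher and 6 lower among 63 (median 0.04). The part of overlapping reads in the tilt was not tested.

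**Figure D1:**
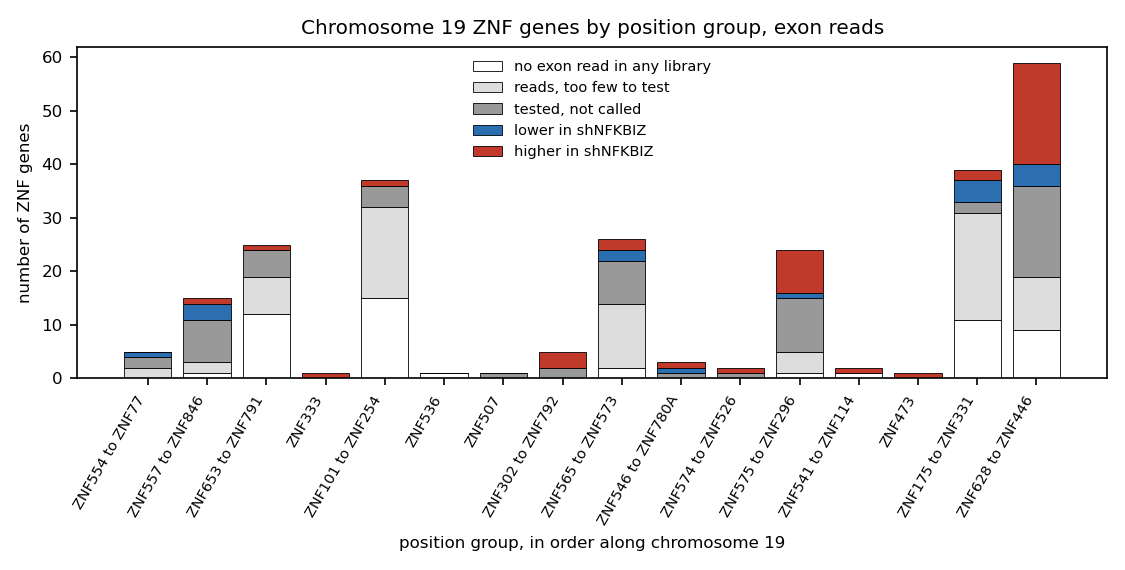
Number of chromosome 19 ZNF genes in each of 16 position groups (bars, from left to right along the chromosome), divided by their state in exon reads: no read, too few reads to test, tested and not called, lower, and higher in shNFKBIZ. The last group, ZNF628 to ZNF446, holds 59 genes, of which 40 were tested and 19 were higher, while the group ZNF175 to ZNF331 holds more lower (4) than higher (2) genes.

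Position along the chromosome was examined next. A gap of more than 1 Mb between neighbouring ZNF genes was taken to start a new group, which gave 16 groups. The group at the end of the long arm, from ZNF628 to ZNF446, held the most tested genes and the most calls, with 19 higher and 4 lower among 40 tested, with a median of 0.21. The other protein-coding genes inside the same span had 5 higher and 0 lower among 12 tested and a median of 0.18. In the group from ZNF575 to ZNF296 (43.5 to 45.1 Mb) 8 were higher and 1 lower among 19, with a median of 0.16, and the other protein-coding genes there had 7 higher and 3 lower among 14 and a median of 0.17. Elsewhere the other protein-coding genes, which can include zinc finger genes with other names, differed more from the ZNF genes. Their medians were -0.33 over 2 genes (36.2 to 37.8 Mb) and -0.39 over 2 genes (42.1 to 42.2 Mb). There the ZNF genes had 0.08 and 0.29. With gaps of 500 kb, the group from ZNF575 ended at ZNF180 (44.5 Mb) with the same median of 0.16, and the other protein-coding genes in it had 6 higher and 0 lower among 6 tested and a median of 0.58.

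Some groups went the other way or did not move together. From ZNF175 to ZNF331 (51.6 to 53.6 Mb) 2 were higher and 4 lower among 8 tested, with a median of -0.22, and 11 of its 39 genes had no reads. From ZNF557 to ZNF846 (7.07 to 9.79 Mb) 1 was higher and 3 were lower among 12, with a median of -0.07. From ZNF302 to ZNF792 (34.7 to 35 Mb) 3 of 5 were higher and none lower, with a median of 0.55. Over all groups, 67 of 104 pairs of neighbouring tested genes (64.4%) had a log2 fold change of the same sign. Of the 119 genes tested, 74 had a positive and 45 a negative change, so pairs tend to share a sign whatever their place. Neighbours that overlap can also share reads. The share without regard to position was not computed.

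The longest row of neighbouring tested genes called the same way lay in the last group and was singled out after its values were seen. It held 8 tested genes, from ZNF549 to ZNF776 (57527325 to 57758148, hg38, 231 kb), all of them higher by 0.19 to 0.50 on the log2 scale, with a median of 0.42. They are ZNF549, ZNF550, ZNF416, ZNF530, ZNF134, ZNF211, ZNF551 and ZNF776. Of these 8 genes, 5 overlap another gene and can share reads with it. The span holds 10 ZNF genes, and the other 2, ZNF154 and ZNF671, had too few reads to be tested. In ZNF550 the exon reads numbered 328, 331 and 300 in shCtrl against 434, 470 and 452 in shNFKBIZ (log2 fold change 0.49, SE 0.0686, adjusted p 2.11e-06, edgeR), and ZNF549, which overlaps it on the other strand, had 144, 154 and 146 against 199, 207 and 211. ZNF530 overlaps no other gene and had 255, 277 and 273 against 346, 339 and 371 (0.38, SE 0.0781, adjusted p 0.000229, edgeR). Of the 7 genes of this row that could be tested on intron reads, 2 were higher (ZNF530 and ZNF551) and none lower. The next longest rows of higher genes held 3 genes each, and no row of lower genes was longer than 2.

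**Figure D2:**
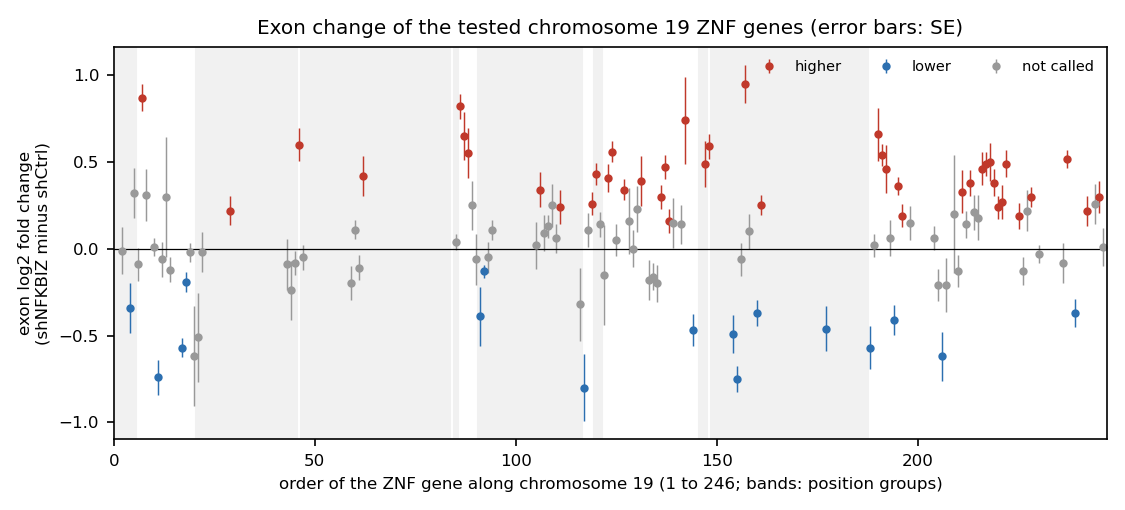
Log2 fold change in exon reads (shNFKBIZ minus shCtrl) of the 119 tested ZNF genes, plotted in their order along chromosome 19 (1 to 246), with the standard error as bars and position groups as alternating bands. Of the 42 higher genes 19 lie in the last group at the right end, and the 16 lower genes are spread over 7 groups, with values between -0.80 and 0.95.

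The genes with the largest called changes in exon reads, among those with a mean of at least 50 exon counts, were read library by library. Most of them have no assigned target that is textbook knowledge, and they are described by their position and levels. ZNF841 (52064465 to 52095765, minus strand), a KRAB-pattern gene with 20 fingers, had the largest rise. It had 5.13, 5.48 and 4.23 CPM in shCtrl and 9.94, 9.88 and 8.93 CPM in shNFKBIZ, and the groups did not overlap (0.95, SE 0.11, adjusted p 1.16e-07, edgeR). It overlaps ZNF432 on the same strand.

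ZNF358 (7515292 to 7521025, plus strand), which lacks the KRAB-like pattern, had 11.7, 11.3 and 10.6 CPM in shCtrl and 21.4, 21.5 and 18.6 CPM in shNFKBIZ (0.87, SE 0.078, adjusted p 2.32e-09, edgeR). Of its exon reads 78.6% were unique. ZNF302 (34677639 to 34686397, plus strand) had 13.2, 15.3 and 15.4 against 25.3, 24.6 and 27.3 CPM (0.82, SE 0.0718, adjusted p 1.68e-09, edgeR). Its neighbours ZNF181 (0.65, SE 0.137) and ZNF599 (0.55, SE 0.144) were higher as well, so that the 3 genes formed a row of 95.6 kb.

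The other rises among the 6 largest at that count limit were those of ZNF524 (0.66, SE 0.154), which overlaps FIZ1, and ZNF333 (0.60, SE 0.0945). ZNF333 had 2.07 ± 0.089 TPM in shCtrl and 3.33 ± 0.0754 TPM in shNFKBIZ (SD, n = 3), and its intron reads rose by nearly as much (0.54, SE 0.123). ZNF285 was called higher as well (0.74, SE 0.251, adjusted p 0.0138, edgeR), with 16, 18 and 24 against 33, 33 and 32 exon reads, which is under the limit of 50.

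**Figure D3:**
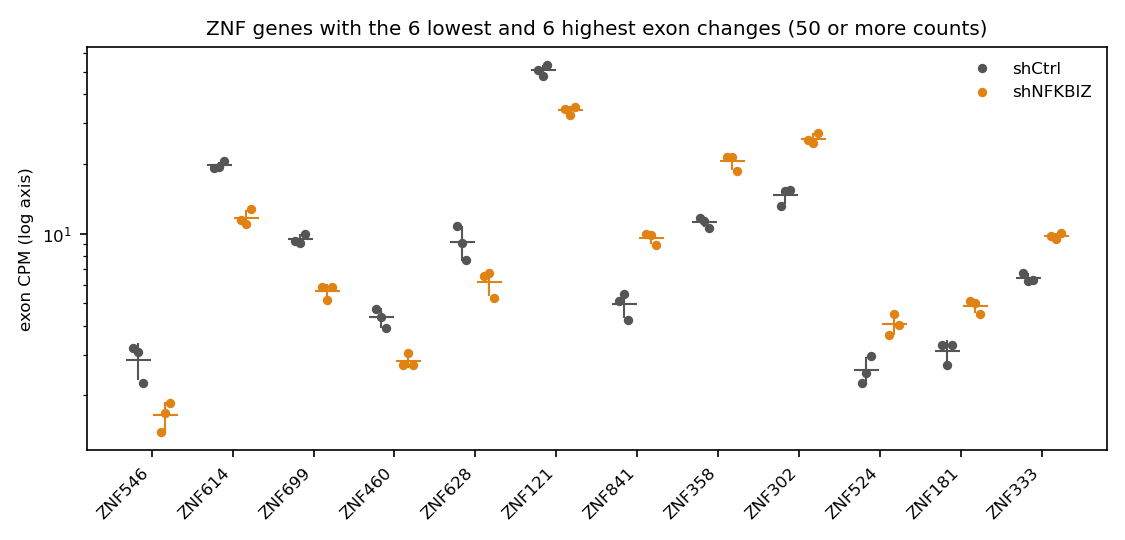
Exon CPM (log axis) in each library of the ZNF genes with the 6 lowest and the 6 highest exon changes among those that passed the test and had a mean of at least 50 exon counts, with shCtrl in grey and shNFKBIZ in orange, and the mean and SD as lines. The groups do not overlap in any of the 12 genes, and no mean differs by as much as 2-fold.

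ZNF546 (39984134 to 40021038, plus strand) had the largest fall, from 3.21, 3.08 and 2.27 CPM to 1.39, 1.68 and 1.85 CPM (-0.80, SE 0.194, adjusted p 0.00109, edgeR), at a low level of 32 to 74 reads per library. ZNF614 (52012765 to 52030240, minus strand) had 19.2, 19.3 and 20.6 CPM in shCtrl and 11.4, 11 and 12.8 CPM in shNFKBIZ (-0.75, SE 0.0757, adjusted p 1.59e-08, edgeR). ZNF121 (9560329 to 9584504, minus strand) had 50.7, 48.1 and 53.3 against 34.6, 32.4 and 35.3 CPM (-0.57, SE 0.0534, adjusted p 4.35e-09, edgeR). In none of these 3 genes did the libraries of the groups overlap. ZNF699 (-0.74, SE 0.1), ZNF460 (-0.62, SE 0.142) and ZNF628 (-0.57, SE 0.125) were the other 3 at that count limit.

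ZNF614 and ZNF841 lie among 4 neighbours on the minus strand that were singled out after their values were seen and did not move as one. From the lower to the higher coordinate the exon changes were -0.49 for ZNF615, -0.75 for ZNF614, -0.06 for ZNF432 (not called) and 0.95 for ZNF841. The next ZNF genes on either side are also on the minus strand. They are ZNF350, which had too few reads to be tested, and ZNF616 (0.10, not called). ZNF614 and ZNF841 thus held the second lowest and the highest exon change of the 119 ZNF genes tested.

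Intron reads come largely from unspliced transcripts and give a second readout of the same libraries. Of the 246 genes, 99 could be tested on intron reads. Of these, 22 (22.2%) were higher and 8 (8.08%) lower, where 19.3% of all genes tested were higher and 19.5% lower. More genes were again called higher than lower, but the median of 0.04 was equal to that of the other protein-coding genes of chromosome 19 (0.04, with 96 higher and 93 lower among 546) and near that of all genes (0.01). The summed intron CPM, again without TMM factors, were 2843, 2764 and 2872 in shCtrl and 3195, 3244 and 3093 in shNFKBIZ, without overlap. DESeq2, run without a filter on low counts and so on 194 of the genes, called 10 higher and 2 lower. In the last position group 7 were higher and 0 lower among 29, with a median of 0.29.

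Past a 2-fold change in intron reads were 4 genes, where 6.6% of all genes tested were. ZNF841 had 13, 11 and 7 intron reads in shCtrl and 30, 35 and 25 in shNFKBIZ (1.44, SE 0.293, adjusted p 0.000146, edgeR). ZNF580, which has only 3 fingers and overlaps ZNF581 and CCDC106, had 20, 15 and 22 against 46, 57 and 45 (1.28, SE 0.221, adjusted p 1.42e-05, edgeR). ZNF414 (1.21, SE 0.44) had no more than 13 intron reads in any library. It was not called by DESeq2 or by edgeR without a filter on low counts. Nor was it called in 5 of the 6 fits that left out a library (all but that without shCtrl replicate 3). ZNF570 was the gene that fell, from 21, 14 and 10 to 7, 7 and 6 reads (-1.24, SE 0.386, adjusted p 0.00987, edgeR), and it was no longer called by DESeq2 (-1.26) or without shCtrl replicate 1 (-0.92).

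Whether exon and intron reads moved by different amounts was then tested as an interaction in one model. Of 96 genes tested, the exon change was above the intron change in 10 (10.4%) and below it in 11 (11.5%), against 13.1% and 15.7% of all genes tested. The median difference was 0.06. A difference between both readouts was thus no more frequent here than among all genes.

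Among genes with a mean of at least 50 exon and 20 intron counts, those called with an exon change furthest above the intron change were ZNF358, ZNF584, ZNF235, ZNF708 and ZNF473. ZNF358 had 17, 29 and 19 intron reads in shCtrl and 21, 24 and 26 in shNFKBIZ, which overlap, while its exon reads rose (difference 0.85, SE 0.264, adjusted p 0.00955, edgeR). ZNF235 had 125, 121 and 102 intron reads against 86, 83 and 90 (-0.52, adjusted p 0.00119, edgeR), while its exon reads overlapped (difference 0.68, SE 0.192, adjusted p 0.00354, edgeR). The differences of ZNF584 (0.79, SE 0.261), ZNF708 (0.63, SE 0.193) and ZNF473 (0.59, SE 0.21), a gene whose protein takes part in the processing of histone transcripts, were called as well. Each of these 5 calls was lost when certain libraries were left out. This was the case for ZNF358 without shCtrl replicate 2 (0.61), for ZNF235 (0.51), ZNF584 (0.65) and ZNF708 (0.55) without shCtrl replicate 1, for ZNF584 without shNFKBIZ replicate 3 (0.74), and for ZNF473 in 4 of the 6 fits, without shCtrl replicate 1 or 2 or shNFKBIZ replicate 1 or 2 (0.44 to 0.50).

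At the same count limits, the genes called with an exon change furthest below the intron change were ZNF580, ZNF8, ZNF180, ZNF615 and ZNF432, and none of them was called lower in intron reads. ZNF180 (44474428 to 44500524, minus strand) overlaps no other gene. Its exon reads were 283, 303 and 333 in shCtrl and 224, 211 and 234 in shNFKBIZ, and its intron reads 58, 62 and 73 against 89, 93 and 83. The exon reads fell (-0.47, adjusted p 0.000106, edgeR), the intron reads rose (0.37, adjusted p 0.0415, edgeR) and the difference was -0.83 (SE 0.163, adjusted p 2.63e-05, edgeR). The rise in intron reads was not called by DESeq2 (0.37) or by edgeR without a filter on low counts (0.36). It was also not called without either of shCtrl replicates 1 and 2 or shNFKBIZ replicates 1 and 2 (0.30 to 0.36). The difference was called in every fit made of it.

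In ZNF432 (52031378 to 52095738, minus strand) the exon reads were 213, 234 and 255 against 229, 223 and 227, which overlap, and 103, 130 and 121 intron reads against 181, 196 and 198 (difference -0.66, SE 0.135, adjusted p 5.07e-05, edgeR). ZNF841, whose reads rose, overlaps it, and the part of its reads in this intron change was not tested. ZNF615 overlaps no other gene and had a difference of -0.70 (SE 0.217), and it was no longer called without shNFKBIZ replicate 2 (-0.42). ZNF8 (-0.84, SE 0.238) and ZNF580 (-1.21, SE 0.246) each overlap other genes.

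Under the limit of 20 intron counts, ZNF570 had the highest called difference of all (1.51, SE 0.39, adjusted p 0.00151, edgeR) and ZNF101 the second lowest (-0.94, SE 0.334, adjusted p 0.024, edgeR). ZNF101 had 7, 12 and 9 intron reads in shCtrl and 14, 25 and 17 in shNFKBIZ.

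**Figure D4:**
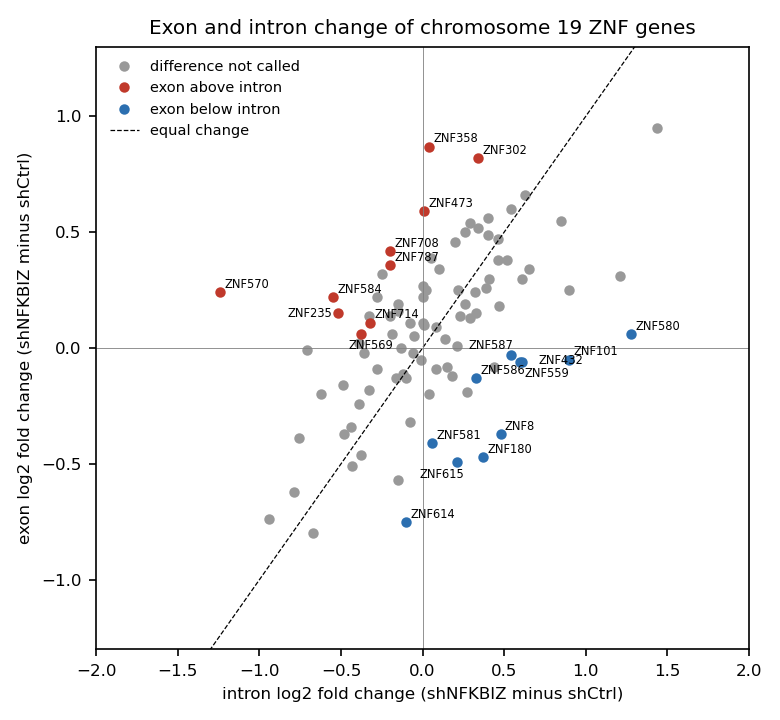
Exon log2 fold change (vertical axis) against intron log2 fold change (horizontal axis), shNFKBIZ minus shCtrl, for the 96 ZNF genes tested in both, with equal change as a dashed line. Red genes (10) had an exon change above and blue genes (11) one below the intron change in the interaction test; the others are grey.

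Sequence was examined because the 7-mer GGAACTC in transcripts had gone with lower exon reads in an earlier look at these data. Zinc finger genes turned out to be rich in its last 6 bases. GAACTC, read on the coding strand, was found 278 times in the coding sequences of 115 of the 246 genes, which is 62.3 sites per 100 kb of coding sequence, against 25.5 in the other protein-coding genes. The full 7-mer was no richer, with sites in the coding sequence of 8.94% of the genes against 10.8% of the other protein-coding genes. Of the 278 sites, 146 (52.5%) lie directly before a finger linker that reads TGEKP or TGERP.

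The place of the sites is shown on stretches of the coding strand that hold the end of a finger and the linker after it, from the 3 genes with the most sites among those tested in both readouts and from ZNF302, which has none. Capitals mark GAACTC, and in ZNF302 the 6 bases at the same place before the linker. Sequences are from hg38, 5′ to 3′, at chr19:52034224-52034391 and chr19:51993456-51993623 and chr19:44477254-44477421 on the minus strand for the first 3, and at chr19:34684557-34684724 on the plus strand for the last.
ZNF432: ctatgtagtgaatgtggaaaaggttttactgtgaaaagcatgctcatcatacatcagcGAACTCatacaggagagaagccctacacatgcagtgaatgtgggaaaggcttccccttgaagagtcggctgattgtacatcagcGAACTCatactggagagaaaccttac
ZNF615: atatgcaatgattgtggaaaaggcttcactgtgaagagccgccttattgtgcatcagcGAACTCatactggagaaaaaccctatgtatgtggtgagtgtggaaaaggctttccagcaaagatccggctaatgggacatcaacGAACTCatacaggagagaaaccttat
ZNF180: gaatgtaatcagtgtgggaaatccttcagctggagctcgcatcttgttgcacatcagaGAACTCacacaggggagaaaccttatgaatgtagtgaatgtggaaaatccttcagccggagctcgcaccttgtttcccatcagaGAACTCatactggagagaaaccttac
ZNF302: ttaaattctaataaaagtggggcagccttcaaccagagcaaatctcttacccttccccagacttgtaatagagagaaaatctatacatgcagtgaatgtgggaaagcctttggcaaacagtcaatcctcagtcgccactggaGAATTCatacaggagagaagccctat

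The genes were grouped in 8 ways (the 6-mer and the 7-mer in coding sequence and in the 3′UTR, the 7-mer in either, the KRAB-like pattern, the number of fingers and overlap). The grouping given first is by the 6-mer in coding sequence at 3 or more sites, and that 6-mer, region and number were chosen after the values had been seen. It is a description with no test. Among the 15 genes with 3 or more sites that were tested in both readouts, the median change was -0.08 in exon reads and 0.21 in intron reads, and the median difference was -0.51, with 7 called below and 1 above. Among the 81 with 0 to 2 sites the medians were 0.14, 0.00 and 0.11, with 4 called below and 9 above. The 5 of the 15 genes with exactly 3 sites had differences from -0.21 to 0.59, so the low median rests on the genes with 4 or more. Leaving out 1 library at a time gave median differences from -0.61 (without shCtrl replicate 1) to -0.32 (without shCtrl replicate 2) in the first group, and among its genes that overlap no other gene the median was -0.63 over 7 genes.

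For the full 7-mer, from which the 6-mer was taken, the values depended on the region. The median difference was -0.10 over 17 genes with a site in either region and 0.06 over the other 79. It was -0.51 over the 11 whose 3′UTR holds the 7-mer (4 below, 0 above) and -0.17 over the 8 with it in coding sequence (1 below, 1 above). ZNF180, ZNF559 and ZNF614, all called below, are in this 3′UTR group and in the 6-mer group, so these medians are not independent. Among ZNF genes of other chromosomes, the 22 with the 7-mer in the 3′UTR had 0.13 (3 below, 4 above), against 0.10 for the 157 without. Among protein-coding genes other than the chromosome 19 ZNF genes, the 865 with it had -0.12 (272 below, 81 above), against -0.00 for those without.

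The 6-mer grouping was much weaker outside chromosome 19. Among ZNF genes of other chromosomes, the 22 with 3 or more coding sites had a median difference of -0.02 (3 below, 1 above), against 0.12 for the 157 with fewer. Among protein-coding genes other than the chromosome 19 ZNF genes, the 367 with 3 or more sites had a median difference of -0.05, against -0.01 for those with 0 to 2.

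**Figure D5:**
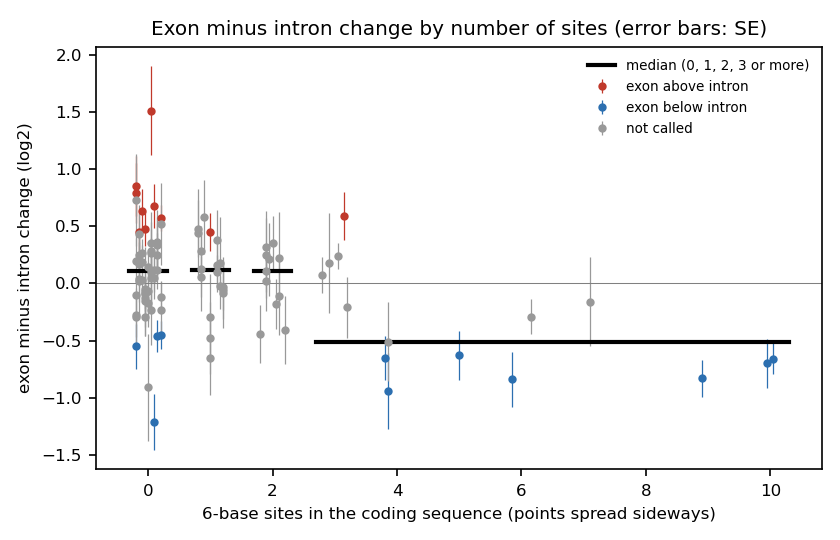
Difference between the exon and intron log2 fold changes (vertical axis, bars are SE) against the number of GAACTC sites in the coding sequence (horizontal axis, points spread sideways), for the 96 ZNF genes tested in both. Black lines are medians, which were 0.11 at 0, at 1 and at 2 sites and -0.51 at 3 or more, and the 5 genes with exactly 3 sites all lie above that last line.

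Promoter sequence was available for 216 of the genes (RefSeq, GRCh38.p14, 250 bases before to 50 after the start). The κB motif bound by NF-κB dimers was found on either strand in 6 of them (2.78%), against 5.72% of all RefSeq promoters of the same length. None of the 37 matched promoters of genes with higher exon reads held it, and 1 of 16 of those with lower reads did. The number of CpG dinucleotides had a median of 20 per promoter, against 14 over all promoters, and of 16 in the genes without exon reads.

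The co-repressors that KRAB zinc finger proteins act through were listed as 18 genes, and all of them could be tested on exon reads. More were lower than higher, with 5 higher, 11 lower and 2 not called and a median of -0.22, where 32.5% of all genes tested were higher and 32.8% lower. TRIM28, the scaffold that binds the KRAB box, rose by 0.15 (399 ± 1.65 to 468 ± 16.5 TPM, SD, n = 3; SE 0.0327, adjusted p 0.00039, edgeR). SETDB1 rose by 0.51, from 11.3 ± 1.15 to 17 ± 0.594 TPM (SE 0.0625, adjusted p 2.81e-07, edgeR). The largest change in the list was a rise, that of CBX5 by 0.93, from 25.7 ± 0.61 to 51.7 ± 0.236 TPM (SE 0.036, adjusted p 1.5e-15, edgeR). CBX5 was chosen after its values were seen. So were, of those that fell, ATF7IP, a partner of SETDB1, and TASOR, a subunit of the HUSH silencing complex. ATF7IP was at 37.3 ± 0.859 TPM in shCtrl and 28.1 ± 1.24 TPM in shNFKBIZ (-0.49, SE 0.0409, adjusted p 6.42e-10, edgeR). TASOR was at 57.3 ± 1.79 and 44.1 ± 0.622 TPM (-0.46, SE 0.0361, adjusted p 2.7e-10, edgeR).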

How the data were processed

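Total RNA of LOX-IMVI cells was sequenced in 3 shCtrl and 3 shNFKBIZ libraries, grouped by their titles. The authors mapped the reads to hg38 (GRCh38) in CLC Genomics Workbench with default settings, allowed up to 10 places per read and did not use strand. The deposited values are whole counts, given for each gene as total and as unique reads in exons and in introns. Total reads were used. TPM was recomputed from exon reads and exon length. Columns of the deposited tables that hold other normalized values were not used.

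After filterByExpr 13843 genes remained on exon reads, 12119 on intron reads and 11025 on both. TMM factors, robust glmQLFit and glmQLFTest of edgeR 4.0.16 in R 4.3.3 were used, two-sided, with Benjamini-Hochberg adjustment over all genes tested. Standard errors were derived from the F statistic (size of the log2 fold change over its square root). The interaction of read type and group was fitted over 12 columns with library as a block and TMM for both read types apart. On simulated data with 2-fold changes the exon fit found 90.5% of 199 changed genes, with 13 unchanged genes called as well, the intron fit 85.1% of 194 with 25 unchanged ones called, and the interaction 84.4% of 340 with 22. False calls were thus above the nominal share in each of these fits, and most so in the intron fit.

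Named genes were, in each direction, the 6 largest exon changes (mean of at least 50 exon counts, no overlap in CPM) and the 5 largest exon minus intron changes (at least 50 exon and 20 intron counts) among called genes, and every gene called at 2-fold or more. The genes and lists were chosen with earlier results of these data known. Coding sequences and fingers came from GENCODE release 44, where all 246 genes were found and 245 had the same coordinates. Overlaps were read from the gene coordinates deposited with the counts, on either strand. The KRAB-like pattern is a text pattern that was widened after known KRAB genes had been missed, so that its count is approximate.

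Alternatives were RLE factors, library size alone, other filters, unique reads, total gene reads, the likelihood ratio test, DESeq2 1.42.0, removal of the 10 most abundant genes, a GC content and length trend, a replicate block, leaving out each library, a 2-fold limit, genes without overlap and gaps of 500 kb. Deviations of same-numbered libraries correlated at 0.0287 to 0.0957.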

Additional observations from a re-analysis of the deposited data

How the results depend on the processing

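Direction held in the summary of exon reads: more genes were higher than lower under every refit. Members that overlap no other gene gave 10 higher and 8 lower in exon reads (median 0.04), 9 and 2 in intron reads (0.14) and 3 and 4 in the exon minus intron change (-0.07), of fewer genes by construction. At least a 2-fold change left 0 and 0, 3 and 1, and 1 and 1. Library size alone moved the medians to 0.22 (exon) and 0.10 (intron) and left 3 lower in intron reads. It moved the medians of all genes to 0.09 and 0.07. A correction for GC content and exon length gave an exon median of 0.15. Lower intron calls were 5 with no filter on low counts. DESeq2, also without that filter, gave 10 higher and 2 lower in intron reads. Unique reads left 6 exon changes below the intron change. A gap of 500 kb left 2 lower genes in the last position group. The cause was not tested.

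Leaving out 1 library gave 34 to 40 higher and 14 to 18 lower in exon reads (median 0.08 to 0.15), 14 to 18 and 4 to 6 in intron reads (0.04 to 0.08), and 4 to 9 and 8 to 10 in the difference (0.03 to 0.09). A count moved by over 1.5 times without shNFKBIZ replicate 2 for higher intron reads (14), without shCtrl replicate 1 (5) or 3 (4) or shNFKBIZ replicate 2 (4) or 3 (5) for lower intron reads, and without shCtrl replicate 1 (4) or shNFKBIZ replicate 3 (6) for exon changes above intron.

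The following values changed sign, and of them ZNF432 with total gene reads was called (adjusted p 0.0202, edgeR) and the others were not. ZNF235 in exon reads was -0.18 with total gene reads, ZNF432 0.22 there and 0.03 with library size alone, and ZNF473 -0.04 in unique intron reads. Leaving out 1 library gave -0.13 to 0.03 for ZNF432 and -0.01 to 0.11 for ZNF580 in exon reads, -0.36 to 0.06 for ZNF121, -0.11 to 0.27 for ZNF358, -0.25 to 0.13 for ZNF473 and -0.30 to 0.00 for ZNF614 in intron reads, and -0.42 to 0.40 for ZNF524, -0.19 to 0.02 for ZNF546 and -0.18 to 0.62 for ZNF699 in the difference.

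A replicate block gave 43 higher and 15 lower in exon reads, 22 and 8 in intron reads and 10 and 11 in the difference. Same-numbered libraries correlated at 0.0287, 0.0957 and 0.0373 in exon reads, so no strong effect shared by replicate number was seen. The labels do not say whether the libraries were paired.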

Other observations

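The naming rule left out the chromosome 19 lncRNAs that carry a ZNF name. Of 32 such lncRNAs, 7 could be tested on exon reads, of which 2 were higher, 1 was lower and 4 were not called. The reads of ZNF561-AS1, which overlaps ZNF562, were 48, 43 and 30 in shCtrl against 102, 84 and 91 in shNFKBIZ (log2 fold change 1.18, SE 0.175, adjusted p 4.13e-06, edgeR). ZNF542P had 33, 39 and 38 reads against 11, 13 and 13 (-1.58, SE 0.258, adjusted p 1.47e-05, edgeR), and it overlaps ZSCAN5A and ZNF582. ZNF225-AS1 was higher (0.65, SE 0.217). Both larger changes were past the 2-fold limit that no protein-coding ZNF gene of chromosome 19 reached in exon reads. Since strand was ignored, reads of these lncRNAs and of the genes they overlap cannot be told apart.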
